A study of Arabidopsis thaliana with 6 samples.

Results

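The genes described here encode family 1 UDP-glycosyltransferases (UGTs) of Arabidopsis thaliana, taken as a list of 60 loci of the UGT71 to UGT84 groups. A gene was read only where a probe set of the array was annotated to it alone. This held for 45 of the 60 genes, out of 13356 genes with such a probe set in the whole table. Another 7 genes shared 4 probe sets with a related gene, and the remaining 8, HYR1, UGT73C5, UGT73C6, UGT74E2, UGT74F2, UGT75B1, UGT75B2 and UGT84A2, were not analysed here. Of the 45 measured genes, 37 carry a UGT or equivalent enzyme name in the gene table used and 8 are given by locus only.

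UGTs transfer a sugar, usually glucose from UDP-glucose, onto small acceptor molecules. In plants this inactivates or stores hormones such as auxin, cytokinin, abscisic acid and salicylic acid, finishes flavonoids, glucosinolates and lignin precursors, and makes foreign chemicals more soluble and ready for the vacuole. For auxin, glucose ester formation by UGTs runs beside the amino acid conjugation done by GH3 enzymes and beside oxidation.

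Transcripts were measured on Affymetrix ATH1 arrays in whole Columbia 0 seedlings, 7 days old, grown in multi-well plates. The treated group received 5 µM of a 2-(2,4-dichlorophenoxy)propanamid whose nitrogen carries a 4-(isobutyrylamino)-3-methoxyphenyl group, called the compound below, for 24 h, and the control group received the solvent DMSO alone for the same time. There were 3 biological replicates of either treatment, with seedlings from 24 wells of 5 seeds pooled for every array. By its title the study is about auxin signalling in cell death that depends on photorespiratory hydrogen peroxide, and the comparison asks which transcripts differ after the compound.

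Values are log2 RMA expression values, on which a difference of 1 is a 2-fold difference. Array medians lay between 5.75 and 5.79, and the number of arrays limits the precision. Arrays with the same replicate number deviated together in both groups (correlations of 0.727 to 0.743 across probe sets), so differences within a number are given below as well. With limma, 78 of 22746 probe sets (0.343%) passed an adjusted p below 0.05, and 865 (3.80%) passed with the replicate number as a block. Leaving out any 1 compound array left 0 calls in the fit without the block. Leaving out DMSO replicate 1, 2 or 3 left 76, 40 and 1. The root marker PYK10 was read at 12.73 ± 0.12 with the compound and 12.82 ± 0.18 with DMSO (SD, n = 3 each), and no gene of the shoot marker list had a named single-gene probe set. Both measured root hair markers, EXPA7 and EXPA18, fell with the compound (log2 fold changes of -2.10 and -1.81, limma adjusted p = 0.042 and 0.0266), and fewer cells of a type cannot be told apart from less RNA per cell in such whole-seedling samples. The part of this shift in the values below was not tested. As a measure of RNA integrity, 3' minus 5' control probe sets differed between compound and DMSO by 0.02 (actin), -0.18 (GAPDH) and -0.05 (ubiquitin), with p = 1, 0.2 and 0.7 by exact two-sided permutation, where 0.1 is the smallest possible.

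None of the 45 measured UGT genes passed the test, with or without the replicate block. Over all probe sets 0.343% passed without the block and 3.80% with it, which is few genes in a list of 45. The smallest limma adjusted p was 0.406 without the block and 0.0559 with it, both for UGT71C1. At an unadjusted p below 0.05 there were 2 genes without the block (UGT71C1 and AT5G05880), beside 5.36% of all probe sets, and 11 genes (24.4%) with it, beside 16.0% of all probe sets. Of the 11, 5 were higher (8.54% of all probe sets) and 6 lower (7.49% of all probe sets). Log2 fold changes, compound minus DMSO, ran from -0.56 to 0.47, with a median of 0.00, against a median of 0.01 over all probe sets. There were 23 genes higher (51.1%, beside 54.8% of all probe sets) and 22 lower. The median size of the difference was 0.149, beside 0.0849 over all probe sets. A difference of at least 0.5 in size was reached by 1 gene (3.80% of all probe sets), and a 2-fold difference by 0 (0.919% of all probe sets). The 95% interval of the difference with the block lay within 2-fold in either direction for all 45 genes (97.9% of all probe sets), and within -0.5 and 0.5 for 32 of them (88.3% of all probe sets). Without the block 38 of 45 intervals lay within 2-fold in either direction (93.0% of all probe sets), and the 7 wider ones belonged to UGT72B1, UGT73B4, UGT73C1, UGT74D1, IAGLU, UGT76B1 and UGT76E11. Means of 8 of the 45 genes lay below the lowest lower quartile of the arrays, 3.95 (23.4% of all probe sets), where a change can go unseen.

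**Figure D1:**
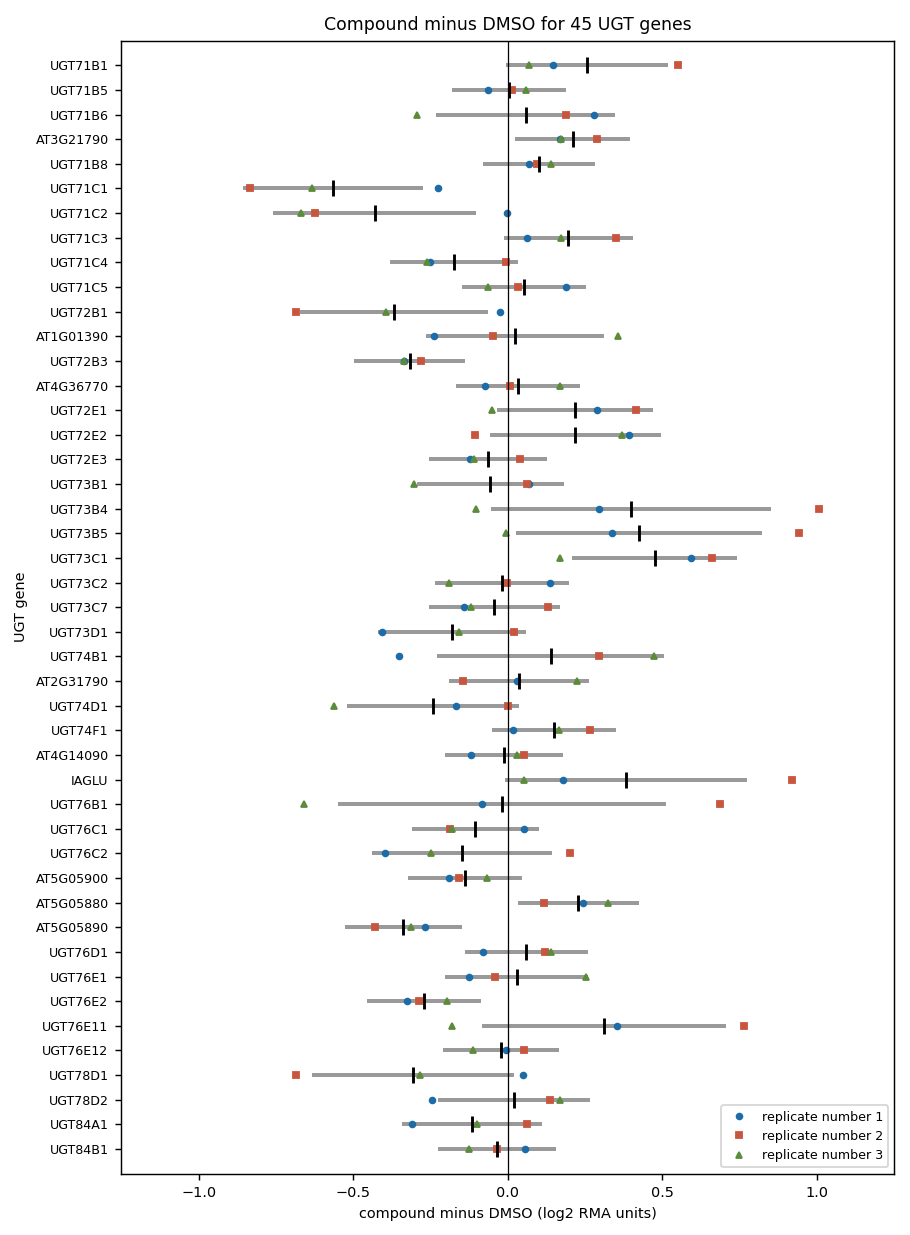
Compound minus DMSO in log2 RMA units (x axis) for the 45 measured UGT genes (y axis, in order of UGT group). Coloured points are the differences within replicate numbers 1, 2 and 3, black ticks their mean and grey bars the 95% interval with the replicate block. Means lie between -0.56 (UGT71C1) and 0.47 (UGT73C1), and every grey bar stays inside -1 and 1.

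Of 4 UGT genes of the list taken here as auxin glucosyltransferase genes, 3 were measured and none passed the test. UGT74D1, whose enzyme glucosylates auxin and its oxidised form, had values of 7.76, 7.65 and 6.20 in compound replicates 1, 2 and 3, against 7.93, 7.65 and 6.76 in DMSO replicates 1, 2 and 3. Both groups ran high in numbers 1 and 2 and low in number 3, and they overlapped. Its log2 fold change was -0.24 (SE 0.49, limma adjusted p = 0.999, and 0.375 with the block). The 95% interval with the block was -0.52 to 0.03.

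IAGLU (AT4G15550), entered in the list as UGT75D1 and annotated as an indole-3-acetate glucosyltransferase, had values of 9.15, 8.98 and 7.73 in compound replicates 1, 2 and 3, against 8.97, 8.06 and 7.68 in DMSO replicates 1, 2 and 3. It was higher with the compound within each number, by 0.18, 0.92 and 0.05, while the groups overlapped. The log2 fold change was 0.38 (SE 0.47, limma adjusted p = 0.999, and 0.313 with the block), and the interval with the block was -0.0013 to 0.77. It was at 0.10 without DMSO replicate 3 and at 0.83 without compound replicate 3.

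UGT84B1, which encodes an enzyme that makes the glucose ester of auxin, stood at 4.16, 3.83 and 3.84 in compound replicates 1, 2 and 3, against 4.11, 3.87 and 3.96 in DMSO replicates 1, 2 and 3. All of these lie near the lower quartile of the arrays. The groups overlapped, with a log2 fold change of -0.04 (SE 0.12, limma adjusted p = 0.999, and 0.892 with the block). UGT74E2, which acts on the auxin precursor indole-3-butyric acid, was not analysed here.

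Genes of the other routes of auxin inactivation were read in the same samples. Of 7 measured genes on a list of auxin conjugation and oxidation, 2 rose (0.343% of all probe sets were called). With the block 3 rose and 1 fell (3.80% of all probe sets were called). These 4 calls were also made with the number as a random block, at adjusted p of 0.00067 (GH3.1 and GH3.5), 0.013 (GH3.3) and 0.0172 (AT1G14120). The other 3, GH3.9, GH3.17 and AT1G14130, did not pass and were at 0.08 (SE 0.10), 0.24 (SE 0.15) and 0.17 (SE 0.15), inside the range of the auxin UGT genes. GH3.5, an auxin-amido synthetase gene, had values of 10.69, 10.71 and 10.86 in compound replicates 1, 2 and 3, against 8.65, 9.15 and 8.94 in DMSO replicates 1, 2 and 3 (log2 fold change 1.84, SE 0.14, limma adjusted p = 0.0147). The compound arrays were all above the DMSO arrays, and the 95% interval with the block was 1.59 to 2.09. This interval and those of the 3 auxin UGT genes did not meet, but the difference between the genes was not tested.

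**Figure D2:**
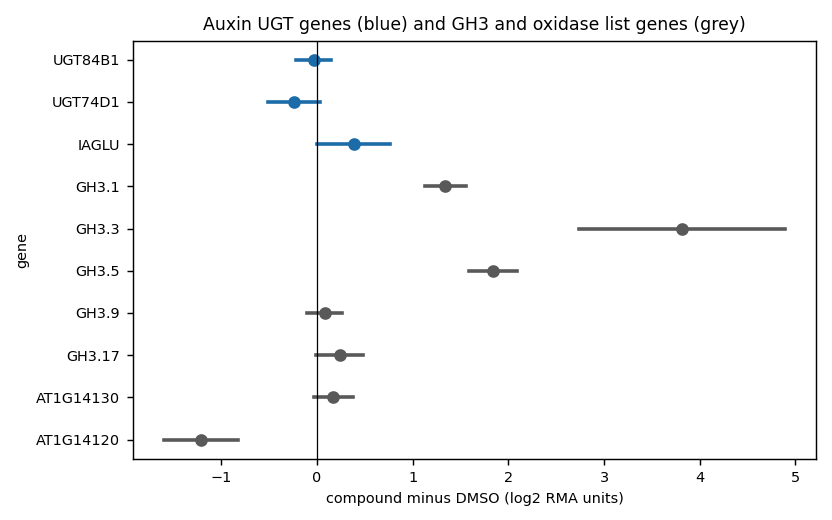
Compound minus DMSO in log2 RMA units (x axis) for genes that act on auxin (y axis), with points for the log2 fold change and bars for the 95% interval with the replicate block. The auxin UGT genes (blue) lie between -0.24 and 0.38, while GH3.1, GH3.3 and GH3.5 (grey) lie at 1.34, 3.82 and 1.84, and AT1G14120, entered in the list as an auxin oxidase, lies at -1.21. GH3.9, GH3.17 and AT1G14130 (grey) lie at 0.08, 0.24 and 0.17, within the range of the auxin UGT genes.

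In the UGT71 group, 9 named genes were measured, 6 higher and 3 lower, and none passed the test. UGT71C1, whose enzyme glucosylates phenolic acids and flavonols in vitro, had the lowest log2 fold change of all 45 genes. Its values were 4.31, 4.23 and 4.15 in compound replicates 1, 2 and 3, against 4.53, 5.07 and 4.79 in DMSO replicates 1, 2 and 3. The compound arrays were all below the DMSO arrays. Groups did not overlap in 3 of the 45 genes, UGT71C1, UGT71B8 and AT5G05880 (9.74% of all probe sets). The log2 fold change was -0.56 (SE 0.15, limma adjusted p = 0.406, and 0.0559 with the block). It passed where both arrays of replicate 1 were left out and the block was kept (-0.73, adjusted p = 0.0277). That fit has 1 residual degree of freedom. With replicate 2 or 3 left out in the same way it did not pass (-0.43 and -0.53, adjusted p = 0.141 and 0.308).

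UGT71C2, its neighbour on chromosome 2, had values of 7.26, 7.37 and 7.28 in compound replicates 1, 2 and 3, against 7.26, 7.99 and 7.94 in DMSO replicates 1, 2 and 3. In replicate 1 the arrays differed by -0.0017 only, while replicates 2 and 3 were lower with the compound by 0.62 and 0.67. The log2 fold change was -0.43 (SE 0.20, limma adjusted p = 0.999, and 0.173 with the block). Without both arrays of replicate 1, with the block, it was -0.65 (adjusted p = 0.0313). With replicate 2 or 3 left out in the same way it was -0.33 and -0.31 (adjusted p = 0.395 and 0.621). The probe set shared by the next 2 genes in the same run, UGT71D1 and AT2G29710, was also lower within each number (log2 fold change -0.29, SE 0.26, adjusted p = 0.999).

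A second run of neighbouring genes, on chromosome 3, lay on the other side of zero. Its 4 measured members, UGT71B1, UGT71B6, AT3G21790 and UGT71B8, had log2 fold changes of 0.26, 0.06, 0.21 and 0.10, and 3 of the 4 were higher within every replicate number. UGT71B6 encodes an abscisic acid glucosyltransferase. UGT71B8 had values of 4.10, 4.11 and 4.19 in compound replicates 1, 2 and 3, against 4.04, 4.01 and 4.05 in DMSO replicates 1, 2 and 3, without overlap but with a difference of 0.10 only (SE 0.08, limma adjusted p = 0.999). UGT71C5, also an abscisic acid glucosyltransferase gene, was at 0.05 (SE 0.18). UGT71C3, whose enzyme glucosylates methyl salicylate, had values of 4.78, 5.27 and 4.91 in compound replicates 1, 2 and 3, against 4.72, 4.92 and 4.74 in DMSO replicates 1, 2 and 3. It was higher within each number while the groups overlapped, at 0.19 (SE 0.14), and at 0.05 without compound replicate 2.

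Neighbours did not always lie on the same side. Of 11 runs of neighbouring members in the gene table, 9 had at least 2 measured genes, and 5 of these held both higher and lower genes. In the UGT76C run on chromosome 5, AT5G05880 had values of 6.96, 6.79 and 6.90 in compound replicates 1, 2 and 3, against 6.71, 6.67 and 6.57 in DMSO replicates 1, 2 and 3. AT5G05890 beside it had values of 6.93, 6.26 and 6.51 in compound replicates 1, 2 and 3, against 7.20, 6.69 and 6.82 in DMSO replicates 1, 2 and 3. The first was higher and the second lower within all 3 numbers, with log2 fold changes of 0.23 (SE 0.09, limma adjusted p = 0.861) and -0.34 (SE 0.21, adjusted p = 0.999, and 0.0701 with the block). The named cytokinin N-glucosyltransferase genes of that run, UGT76C1 and UGT76C2, were at -0.10 (SE 0.10) and -0.15 (SE 0.13).

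Among the UGT genes listed here for phenylpropanoid and monolignol glucosylation, the 6 measured had log2 fold changes of -0.37 to 0.22, and none passed the test. The range does not cover related genes outside this list. Of these, UGT84A3, a hydroxycinnamate glucosyltransferase gene, was at 0.78 and rose in the blocked fit only, as given below. UGT84A4 was at 0.13 (SE 0.14) and did not pass with or without the block. UGT72B1, whose enzyme conjugates chlorinated phenols and anilines and also acts on monolignols, had values of 7.01, 7.83 and 6.39 in compound replicates 1, 2 and 3, against 7.04, 8.52 and 6.78 in DMSO replicates 1, 2 and 3. Replicate 2 was the highest and replicate 3 the lowest in both groups, and the compound array was the lower one within every number. The log2 fold change was -0.37 (SE 0.54, limma adjusted p = 0.999, and 0.206 with the block). Without DMSO replicate 2 it turned to 0.17, since that array was the highest of the 6.

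UGT72B3, a close relative, had values of 5.59, 5.30 and 4.92 in compound replicates 1, 2 and 3, against 5.93, 5.58 and 5.25 in DMSO replicates 1, 2 and 3. The difference was nearly even over the numbers, at -0.34, -0.28 and -0.33, with a mean of -0.32 (SE 0.23 without the block, SE 0.07 with it, limma adjusted p = 0.999 and 0.0718). UGT72E1, UGT72E2 and UGT72E3, which encode the glucosyltransferases of monolignols and their aldehydes, were at 0.22 (SE 0.14), 0.22 (SE 0.14) and -0.06 (SE 0.09). UGT84A1, for glucose esters of hydroxycinnamic acids, was at -0.12 (SE 0.10).

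In the UGT73 group, 7 single genes were measured and none passed the test. UGT73C1, whose enzyme can O-glucosylate cytokinins and also conjugates nitroaromatic explosives, had the highest log2 fold change of the 45. Values were 4.74, 5.16 and 4.14 in compound replicates 1, 2 and 3, against 4.14, 4.50 and 3.98 in DMSO replicates 1, 2 and 3. The groups overlapped, while each compound array was above the DMSO array of its number. The log2 fold change was 0.47 (SE 0.27, limma adjusted p = 0.999, and 0.0728 with the block).

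UGT73B4 and UGT73B5, neighbouring genes known to be induced by stress and pathogens, were at 0.40 (SE 0.44) and 0.42 (SE 0.22). UGT73B4 had values of 5.07, 6.26 and 4.49 in compound replicates 1, 2 and 3, against 4.78, 5.25 and 4.59 in DMSO replicates 1, 2 and 3. UGT73B5 had values of 5.45, 6.16 and 5.41 in compound replicates 1, 2 and 3, against 5.11, 5.22 and 5.42 in DMSO replicates 1, 2 and 3. For both genes compound replicate 2 was the highest array, and without it UGT73B4 was at -0.09 and UGT73B5 at 0.18. UGT73B1 was at -0.06 (SE 0.36 without the block and 0.10 with it).

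The probe set shared by UGT73B2 and UGT73B3 rose in the fit with the block and did not pass without it. Both genes belong to the UGT73B enzymes that glucosylate flavonoids and respond to stress, and the probe set cannot tell them apart. Its values were 8.93, 8.64 and 8.01 in compound replicates 1, 2 and 3, against 7.97, 7.96 and 7.24 in DMSO replicates 1, 2 and 3. The compound arrays were all above the DMSO arrays, and within the numbers the differences were 0.95, 0.68 and 0.77. The log2 fold change was 0.80, a 1.74-fold difference (SE 0.30, limma adjusted p = 0.798, and 0.00448 with the block). Of 14 alternative settings 4 called it, all of which used the replicate number, and in the 14 it ranged from 0.56 to 1.06. The other 3 shared probe sets were at -0.29, -0.04 and -0.01 and did not pass with or without the block.

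**Figure D3:**
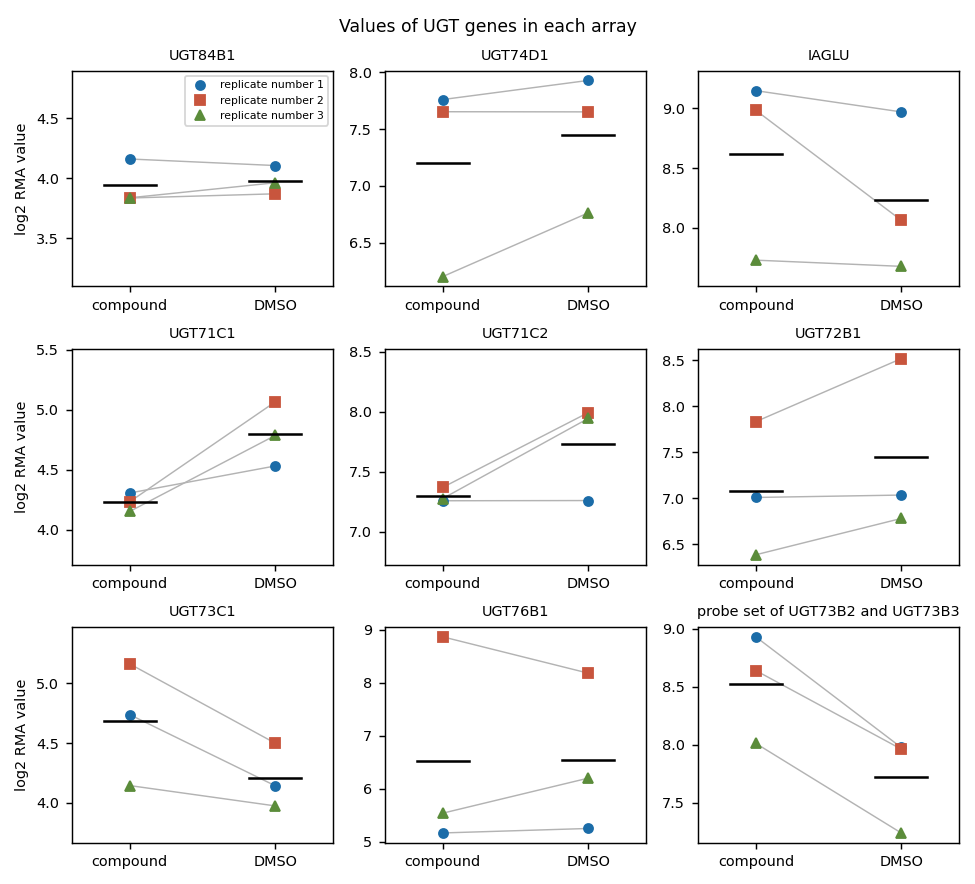
Log2 RMA values (y axis) in the 3 compound and 3 DMSO arrays (x axis) for 8 UGT genes and the probe set shared by UGT73B2 and UGT73B3. Grey lines join arrays of the same replicate number and black bars are group means. In the shared probe set every line is higher on the compound side, while UGT76B1 runs from 5.17 to 8.87 with the compound and from 5.25 to 8.18 with DMSO.

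In the remaining hormone and metabolite groups no gene passed the test. UGT74F1, a salicylic acid glucosyltransferase gene, was at 0.15 (SE 0.11), and UGT76D1, for dihydroxybenzoic acids, was at 0.06 (SE 0.11). UGT74B1, which completes the glucosinolate core, had values of 7.37, 8.15 and 8.01 in compound replicates 1, 2 and 3, against 7.73, 7.86 and 7.54 in DMSO replicates 1, 2 and 3, and was at 0.14 (SE 0.21, limma adjusted p = 0.999). The sign of its difference was not the same in all numbers.

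The flavonoid group of the list held UGT78D1, a flavonol rhamnosyltransferase gene, and UGT78D2, a flavonoid glucosyltransferase gene. Among other genes whose enzymes act on flavonoids, UGT71C1, UGT73B2 and UGT73B3 are given above. This is not a full list, since genes given by locus only were not placed in a substrate group. The family 1 UGT genes outside the list, given below, were not grouped by substrate either. Of these, UGT78D3 and UGT79B1 were at 0.06 (SE 0.10) and -0.12 (SE 0.14) and did not pass in either fit. In the blocked fit 2 of the outside genes rose and 1, AT1G06000, fell. UGT78D1 had values of 5.14, 5.03 and 4.64 in compound replicates 1, 2 and 3, against 5.09, 5.71 and 4.93 in DMSO replicates 1, 2 and 3, with a log2 fold change of -0.31 (SE 0.23, limma adjusted p = 0.999, and 0.336 with the block). UGT78D2 was at 0.02 (SE 0.33 without the block and 0.10 with it). Of the UGT76E genes, UGT76E1, which acts on hydroxylated jasmonate, was at 0.03 (SE 0.10), UGT76E2 at -0.27 (SE 0.12), UGT76E11 at 0.31 (SE 0.42) and UGT76E12 at -0.02 (SE 0.08). Means of UGT76E1 and UGT76E12 lay below the lower quartiles of the arrays.

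Within replicate numbers, 8 of the 45 genes were higher with the compound in all 3 and 8 were lower in all 3, which is 17.8% each. Over all probe sets these shares were 21.2% and 16.5%. The 8 higher ones were UGT71B1, AT3G21790, UGT71B8, UGT71C3, UGT73C1, UGT74F1, IAGLU and AT5G05880. The 8 lower ones were UGT71C1, UGT71C2, UGT71C4, UGT72B1, UGT72B3, AT5G05900, AT5G05890 and UGT76E2. Both shares lie near those of all probe sets.

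The range of the replicate means over the 3 numbers was wider than the difference between compound and DMSO in 34 of the 45 genes (75.6%), a smaller share than the 84.2% of all probe sets. By limma's F test of the replicate number, a test added after the data were seen, 15 of 45 genes (33.3%) differed between numbers at an adjusted p below 0.05, beside 23.2% of all probe sets. UGT76B1, whose enzyme glucosylates salicylic acid and the immune signal isoleucic acid, had the widest range of the 45 and was picked for it after its values were seen. Its values were 5.17, 8.87 and 5.54 in compound replicates 1, 2 and 3, against 5.25, 8.18 and 6.20 in DMSO replicates 1, 2 and 3. Replicate 2 was high in both groups, 9.95-fold above replicate 1 on the mean of both treatments (adjusted p = 0.00127 for the replicate number). The treatment difference was -0.02 (SE 1.15 without the block and 0.22 with it). Its 95% interval with the block was -0.54 to 0.50. The labels do not say what arrays of a number shared. Of the salicylate list only BSMT1 was measured, at 3.47, 3.28 and 3.49 in replicates 1, 2 and 3 over both treatments. These values lie below the lowest lower quartile of the arrays, 3.95, where a difference can go unseen.

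Among the 15 genes that differed between numbers, 9 were lowest and 2 highest in replicate 3, whereas of all probe sets that differed 29.7% were lowest and 34.4% highest in it. UGT74D1, IAGLU, UGT72B1 and UGT78D2 were among the 9, with replicate means of 6.48, 7.71, 6.58 and 5.82 in number 3. Their highest replicate means were 7.84, 9.06, 8.17 and 6.78. UGT73B1, by contrast, was lowest in number 2, at 7.25, against 8.33 in number 1.

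**Figure D4:**
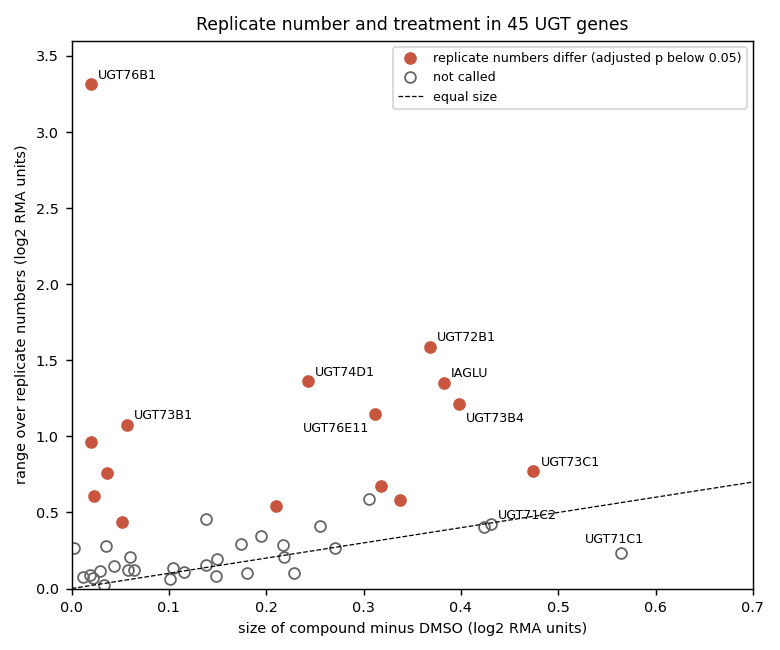
Size of compound minus DMSO (x axis) against the range of the replicate means over the 3 numbers (y axis), both in log2 RMA units, for the 45 measured UGT genes. Filled points are the 15 genes that differed between replicate numbers, and the dashed line marks equal size. UGT76B1 stands at 0.02 and 3.31, and UGT71C1, at 0.56 and 0.23, lies below the line.

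A list of 27 family 1 UGT genes outside the 60 had 25 measured genes, and none of them passed in the fit without the block. In the blocked fit 2 rose and 1 fell. Over all probe sets 0.343% were called without the block and 3.80% with it. UGT87A2 had values of 7.82, 9.65 and 8.33 in compound replicates 1, 2 and 3, against 6.61, 8.36 and 7.47 in DMSO replicates 1, 2 and 3 (log2 fold change 1.12, SE 0.59, limma adjusted p = 0.999, and 0.00245 with the block). UGT84A3, a hydroxycinnamate glucosyltransferase gene, was at 0.78 (SE 0.47, limma adjusted p = 0.999), and its adjusted p was 0.00999 with the block. AT1G06000 was at -0.36 (SE 0.36, limma adjusted p = 0.999), and its adjusted p was 0.0453 with the block. In these 3 genes each compound array differed from the DMSO array of its number in the same direction. With the number as a random block none of the 3 passed (adjusted p = 0.131, 0.191 and 0.429 for UGT87A2, UGT84A3 and AT1G06000). Without 1 array and without a block, UGT87A2 ranged from 0.60 to 1.56, UGT84A3 from 0.31 to 1.11 and AT1G06000 from -0.68 to -0.05. Differences between replicate numbers enter these ranges. With the fixed block and without any 1 number, UGT87A2 was at 1.04 or above. UGT84A3 then ranged from 0.65 to 0.85 and AT1G06000 from -0.38 to -0.35. In these fits the call of UGT87A2 held. The call of UGT84A3 was lost without replicate 3, and that of AT1G06000 without any 1 number.

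Few genes of the other pathway and response lists had a single-gene probe set named here. Measured were 3 phenylpropanoid genes (HCT, CCR2 and ALDH2C4), 2 flavonoid genes (DFR and CHIL) and 2 cytokinin response genes (ARR15 and ARR16). None of these passed in either fit, and their log2 fold changes ran from -0.21 to 0.05. BCAT4, which starts methionine chain elongation for glucosinolates and was the 1 measured gene of its list, was at -1.28 (SE 0.54, limma adjusted p = 0.942). It fell in the blocked fit, at an adjusted p of 0.0303, and did not pass with a random block (adjusted p = 0.118). Without 1 array it ranged from -1.65 to -0.71. Of 2 measured genes of xenobiotic response, the alkenal reductase gene AER was at 0.51 (SE 0.30, limma adjusted p = 0.999) and rose in the blocked fit, at an adjusted p of 0.0414, and did not pass with a random block (adjusted p = 0.205). Without 1 array it ranged from 0.21 to 0.74. GSTU25 was at 0.06 (SE 0.10). No gene of the brassinosteroid and abscisic acid lists had a named single-gene probe set, and these lists were not analysed here.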

How the data were processed

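Per the submitters' processing notes, RMA was used, and the authors deposited 1 log2 value per probe set and array. The software and version are not given in the sources used here. RMA gives all arrays a common distribution, so a shift of all transcripts would not show, and it compresses low values. No detection calls were used. Of 22810 probe sets, 64 controls were left out. Probe sets were named from the platform annotation and the TAIR10.1 gene table: 13513 had 1 gene, 503 several and 8730 were unnamed here.

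The treatment term was fitted alone over all 6 arrays in limma 3.58.1 under R 4.3.3, by lmFit followed by eBayes, with Benjamini-Hochberg adjustment over 22746 probe sets. Groups and replicate numbers came from the sample titles. The numbers were taken to pair the arrays because all 3 same-numbered correlations of deviations from group means exceeded 0.1. The blocked fit is given beside the results, and an SE is from the fit without the block unless stated. The members and lists were chosen with earlier results of these data known. Array values are given for the auxin UGT genes, the 4 highest and 4 lowest differences and the smallest blocked p of each substrate group. Genes called on the other lists are also named. AT5G05880, UGT76B1, the shared probe sets and several single values were picked after their values were seen, and the F test of the replicate number and the counts of differences within numbers were added then. Nothing says that replicates came from separate cultures beyond the word biological. Promoter motifs were not analysed here.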

Additional observations from a re-analysis of the deposited data

How the results depend on the processing

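The number of UGT genes called was 0 under 13 of 14 alternatives, and 2 (UGT71C1 and UGT71C2) without replicate 1 in both groups with the replicate block. The 14 were the replicate number as a fixed or a random block, 1 array or 1 replicate number left out, arrays centred on their medians, a mean of at least 4, and an intensity trend. The median log2 fold change of the UGT genes stayed between -0.04 and 0.04. With the replicate block 865 probe sets were called in all, with a random block 491, and with the block and without replicate 1, 2 or 3 in both groups 516, 743 and 205. Without 1 array the total ranged from 0 to 76. It was 0 without any 1 compound array and 1 without DMSO replicate 3, so 0 UGT calls there say little about the UGT genes. Of the genes on the pathway lists 2 were called, 9 with the block, 4 with a random block, 6, 7 and 4 with the block and without number 1, 2 or 3, and 0 to 3 without 1 array. UGT genes that differed between replicate numbers were 15, and 8 without number 1 and 7 without number 3, where only 2 numbers are compared.

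Leaving out 1 array moved 42 of the 45 differences by over 1.5 times or turned their sign, all of them uncalled in the full data. The fits without 1 array, here and above, had no block, so the other array of that replicate number stayed in. Differences between replicate numbers thus enter these ranges. Signs turned for 6 of the genes given by array. Without 1 array, UGT84B1 ranged from -0.144 to 0.0280, UGT74D1 from -0.586 to 0.259, UGT72B1 from -0.746 to 0.168, UGT73B4 from -0.0937 to 0.790, UGT74B1 from -0.0153 to 0.374 and UGT76B1 from -1.19 to 0.799. With the block, UGT84B1 was at 0.00979, UGT74B1 at -0.0286 and UGT76B1 at 0.30 without number 3, and UGT76B1 was at 0.0123 without number 1. Signs held for the other 3 of the 6 with the block and without number 1, 2 or 3. UGT72B1 was then at -0.54, -0.21 and -0.35, UGT74D1 at -0.28, -0.36 and -0.08, and UGT73B4 at 0.45, 0.09 and 0.65. Without 1 array the 3' to 5' difference ranged from -0.128 to 0.104 for actin and from -0.114 to 0.0212 for ubiquitin. The replicate block changed no call of a single-gene UGT among the 45. The cause was not tested. Averaging several probe sets of a gene was not run, since no UGT gene had more than 1. Low signal limits at least the 8 of the 45 genes with means below the lowest lower quartile of the arrays, 3.95. A mean of at least 4 was reached by 35 of the 45. Means were also low for UGT71B8 (4.08), for UGT71C1 with the compound (4.23) and for UGT73C1 with DMSO (4.21).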
